A study of Mus musculus with 14 samples.

Results

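Heat shock and unfolded protein response genes were followed in depolarised and basal mouse cortical neurons. The set holds 37 gene symbols, chosen by name as chaperones and stress sensors, with earlier results of these data known. They divide into 17 cytosolic heat shock genes, 3 genes of mitochondrial chaperones and 17 genes of the endoplasmic reticulum (ER). All 37 were found among the 52459 gene symbols of the deposited matrices, and all 37 were among the 17732 genes that passed the filter on low counts.

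Heat shock proteins bind unfolded stretches of other proteins and help them fold. HSP70 proteins do so in cycles of ATP hydrolysis that J-domain proteins (DNAJ) start, and the transcription factor HSF1 raises many of these genes when unfolded protein accumulates in the cytosol. The ER has its own chaperones, and its unfolded protein response runs through the sensors IRE1 (encoded by Ern1), ATF6 and PERK, with the transcription factor XBP1 downstream of IRE1. In neurons, constitutive chaperones are abundant, and several J-domain proteins serve synapses.

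The cultures came from the cortex of E16.5 embryos of mice with a knock-in change of a serine of BRG1, the motor subunit of BAF, a complex that moves nucleosomes. There were 2 lines, and in each the wild-type cultures came from littermates. In the SE line a glutamate took its place (Brg1-S1382E), and in the SA line an alanine did (Brg1-S1382A). The question of the study was whether phosphorylation of this serine regulates genes that respond to activity.

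The protocol, worded alike for every library, gives a pretreatment on day 5 in vitro with the sodium channel blocker tetrodotoxin at 1 µM and the NMDA receptor blocker APV at 100 µM, and does not say apart whether basal cultures received them. On day 6 depolarised cultures had 50 mM KCl for 1 h, and the others, called basal, did not. The SE line gave 2 SE and 1 wild-type library after KCl, and 2 SE and 1 wild-type library at basal. The SA line gave 2 SA and 2 wild-type libraries after KCl, and the same numbers at basal. The labels do not state whether libraries of a group came from separate embryos or cultures, so p-values measure the spread between these libraries, which may be technical. They also do not state the zygosity of the mutants or the number of embryos per culture. The main fit pools the spread over all 14 libraries, so SE-line tests use the spread of both lines. That spread was unequal: chi-square between replicates over its degrees of freedom was 8.74 and 9.33 in SE groups. It was 17.8 and 31.3 in SA groups and 59.8 and 64.6 in SA-line wild-type groups.

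Libraries held 22625916 to 23096206 estimated counts. The 6 SE-line and 8 SA-line libraries separated on the first principal component of log2 scaled counts, which held 65.5% of the variance. The SA-line wild-type libraries numbered 1 stood apart from the other SA-line libraries on the second component, which held 9.33%, so results of members are also given without both. The 8 neuron markers (Rbfox3, Map2 and others) summed to 2135 to 3347 TPM, and markers of astrocytes, progenitors, the oligodendrocyte lineage, microglia, meningeal fibroblasts, mural and endothelial cells were all detected in both lines. In bulk RNA fewer cells of a type and less RNA per cell cannot be told apart.

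Regulatory sequence of the members is shown first, because the heat shock and ER genes are known for different promoter elements. Start sites with their flanks were matched for 30 of the 37 members in RefSeq (build GRCm38.p6), as windows of 300 bases that run from 250 bases before the start to 50 bases after it. The windows below belong to the 4 members with the lowest p after KCl, and to Hspa5, which was added because it holds an ER stress element. Capitals mark matches on either strand to a full or short heat shock element (3 alternating NGAAN units, or the pair GAANNTTC or TTCNNGAA), to the ER stress element (CCAAT, 9 bases, CCACG), to its second form (ATTGG, 1 base, CCACG) or to TGACG, the short form of the cAMP response element TGACGTCA.
Dnajb1 (chr8:83607925-83608224, plus strand): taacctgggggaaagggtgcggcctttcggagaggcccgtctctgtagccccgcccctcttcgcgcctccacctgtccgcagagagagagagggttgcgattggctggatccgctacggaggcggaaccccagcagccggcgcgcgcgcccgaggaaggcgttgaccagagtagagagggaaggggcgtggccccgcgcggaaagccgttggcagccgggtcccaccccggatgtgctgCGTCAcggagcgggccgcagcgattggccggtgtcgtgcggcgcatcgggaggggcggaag
Dnajb4 (chr3:152193796-152194095, minus strand): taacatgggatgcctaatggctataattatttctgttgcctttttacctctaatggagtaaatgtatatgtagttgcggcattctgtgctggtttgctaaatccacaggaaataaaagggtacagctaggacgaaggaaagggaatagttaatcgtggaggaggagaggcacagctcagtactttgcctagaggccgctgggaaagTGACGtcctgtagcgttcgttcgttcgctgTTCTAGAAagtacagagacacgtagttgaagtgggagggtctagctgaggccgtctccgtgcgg
Herpud1 (chr8:94386179-94386478, plus strand): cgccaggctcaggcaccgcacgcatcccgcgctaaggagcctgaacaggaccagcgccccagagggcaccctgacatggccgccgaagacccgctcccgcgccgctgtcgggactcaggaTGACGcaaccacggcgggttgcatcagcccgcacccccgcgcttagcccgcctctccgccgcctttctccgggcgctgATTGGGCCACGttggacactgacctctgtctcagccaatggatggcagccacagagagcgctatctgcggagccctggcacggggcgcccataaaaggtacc
Dnajb9 (chr12:44210019-44210318, minus strand): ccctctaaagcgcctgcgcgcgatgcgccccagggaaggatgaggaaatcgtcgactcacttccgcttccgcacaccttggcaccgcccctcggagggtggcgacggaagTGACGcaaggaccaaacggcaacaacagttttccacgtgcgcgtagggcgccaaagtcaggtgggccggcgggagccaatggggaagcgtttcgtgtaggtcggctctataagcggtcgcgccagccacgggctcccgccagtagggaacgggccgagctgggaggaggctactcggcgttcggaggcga
Hspa5 (chr2:34771840-34772139, plus strand): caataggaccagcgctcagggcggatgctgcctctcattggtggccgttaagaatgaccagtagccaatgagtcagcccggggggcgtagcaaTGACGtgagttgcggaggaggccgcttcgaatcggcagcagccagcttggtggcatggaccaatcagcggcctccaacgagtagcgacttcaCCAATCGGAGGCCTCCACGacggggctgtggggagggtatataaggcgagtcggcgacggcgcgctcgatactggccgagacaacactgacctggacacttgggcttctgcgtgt

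In these windows the Dnajb1 start region held TGACG on the reverse strand, 11 to 7 bases before the start, and no heat shock element of either length. Dnajb4 held TGACG 44 to 40 bases before the start and a 2-unit heat shock match 14 to 7 bases before it. Herpud1 held the second form of the ER stress element 52 to 42 bases before the start, and Hspa5 held the first form 65 to 47 bases before it. The Dnajb9 window lies 258 bases from the start of the transcript that carried most of its reads, so it may miss the start used here. A match is a description of letters and was not tested as a binding site. The genes themselves lie at chr8:83608193-83612653 (Dnajb1), chr3:152178511-152210302 (Dnajb4), chr8:94386438-94395377 (Herpud1), chr12:44205559-44210326 (Dnajb9) and chr2:34771970-34777547 (Hspa5) in GRCm38. Hspa8, Hsp90aa1, Hsp90ab1, Hsf1, Hspa9, Manf and Atf6 were not matched.

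Over all 30 windows, the 2-unit heat shock match was in 7 of 13 cytosolic members, in 2 of 2 mitochondrial members and in 0 of 15 ER members, against 15.1% of all 32851 windows. The 3-unit form was in Hsph1, Hspd1 and Hspe1, against 0.603% of all windows. Hspd1 and Hspe1, which encode the mitochondrial HSP60 and its HSP10 lid, lie head to head, and their windows overlap, so the matches are largely the same letters. The ER stress element was in 7 of 15 ER members (Hspa5, Hsp90b1, Dnajc3, Calr, Canx, Pdia6 and Creld2) and in 0 of 13 cytosolic members, against 0.119% of all windows, and its second form was in Dnajb11 and Herpud1, against 0.0365%. The full TGACGTCA was in no member, against 1.79% of all windows. TGACG, which is also contained in TGACGTCA, was in 8 of 13 cytosolic, 2 of 2 mitochondrial and 6 of 15 ER members, against 20.8% of all windows. All 5 genes printed above hold it, but they were picked by their p after KCl or after their sequence was read. Members that were not called after KCl in the main fit, such as Hspa4, Hspa4l, Canx and Edem1, hold it too.

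Levels per length differed widely among the members. Hspa8, the constitutive cytosolic HSP70, had the highest mean at 2801 TPM over the 14 libraries, followed by Hsp90ab1 and Hsp90aa1, the cytosolic HSP90 genes, at 1202 and 837 TPM. In the ER group Calr, the calcium-binding lectin chaperone calreticulin, averaged 408 TPM, Hspa5, the ER HSP70 also called BiP, 217 TPM, and Hsp90b1, the ER HSP90, 208 TPM. The mitochondrial Hspd1, Hspa9 (mitochondrial HSP70) and Hspe1 averaged 178, 149 and 138 TPM. At the low end the stress-inducible HSP70 genes Hspa1a and Hspa1b averaged 3.77 and 2.82 TPM, the small heat shock protein gene Hspb1 4.02 TPM, and the sensor gene Ern1 2.19 TPM.

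**Figure D1:**
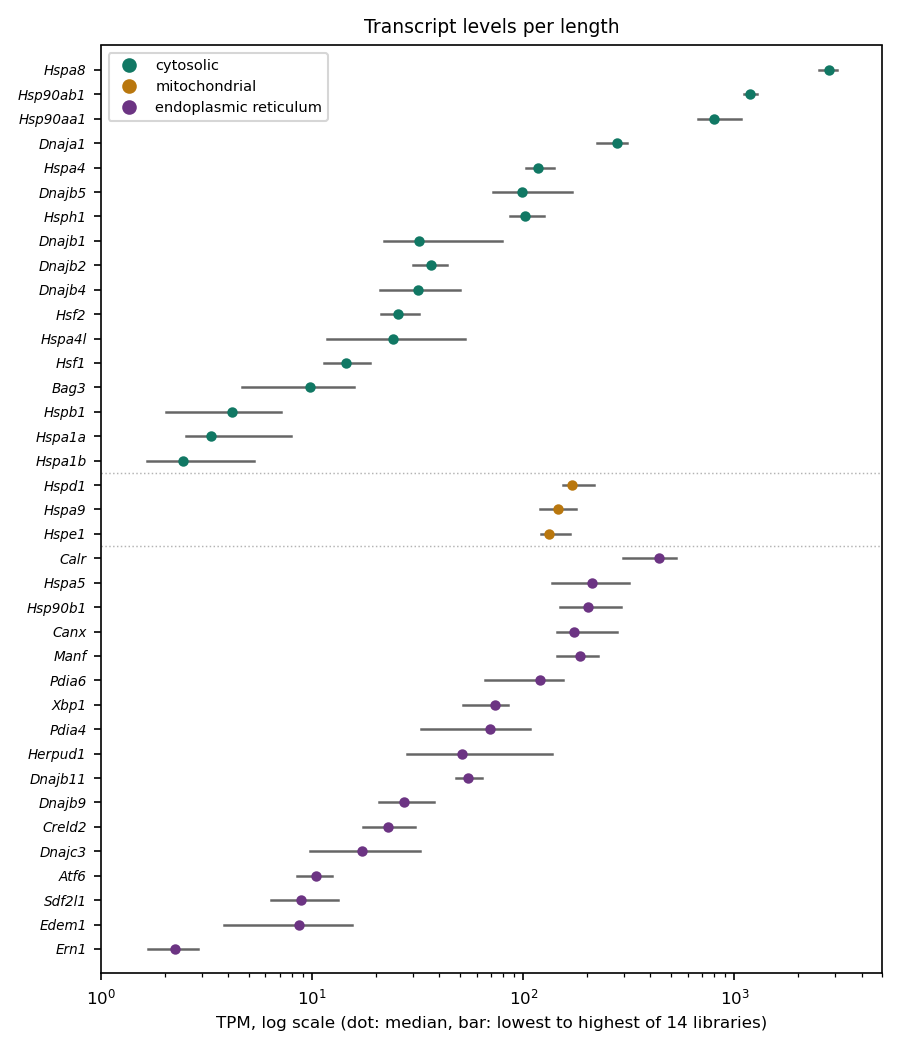
Level of each member in TPM on a log axis, with the median as a dot and the lowest to highest of the 14 libraries as a bar, cytosolic genes at the top, mitochondrial in the middle and ER genes below. Hspa8 spans 2509 to 3051 TPM, while Hspa1b and Ern1 stay between 1.65 and 5.30 TPM.

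KCl for 1 h raised a small part of the set. In the SE line 5 of 37 members rose and 0 fell by edgeR's quasi-likelihood test with Benjamini-Hochberg adjustment over all genes, against 2.81% of all genes called (1.82% higher and 0.998% lower). In the SA line 4 of 37 members rose and 0 fell, against 2.02% of all genes called (1.38% higher and 0.649% lower). Dnajb1, Dnajb4, Dnajb9 and Herpud1 rose in both lines, and Hspa5 passed in the SE line. The members' median log2 fold change was 0.06 in the SE line and 0.05 in the SA line, against 0.01 and -0.0007 over all genes tested.

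**Figure D2:**
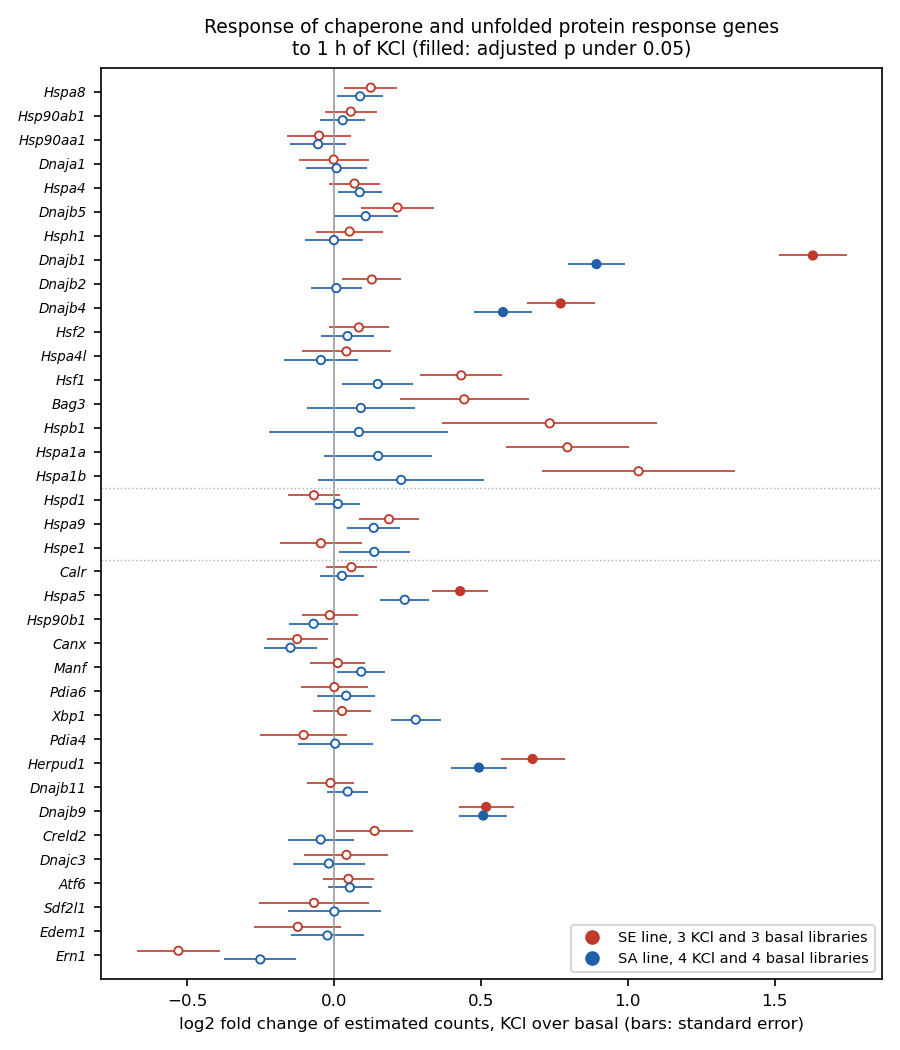
Log2 fold change of each member after 1 h of KCl against basal, in the SE line (red, 3 against 3 libraries) above the SA line (blue, 4 against 4), with standard errors as bars and filled points for adjusted p under 0.05. Dnajb1 lies farthest right in both lines, at 1.63 and 0.89, and most other members lie near 0.

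Among the cytosolic genes, 2 of 17 rose in each line, both encoding J-domain partners of HSP70. Dnajb1, also known as HSP40, had 154 and 119.5 CPM (counts scaled to library size with TMM factors) in SE libraries after KCl and 138 CPM in their wild type, against 42.4 and 46.0 CPM in basal SE libraries and 44.4 CPM in basal wild type. Dnajb1 in the SA line had 82.6 and 78.4 CPM in SA libraries and 69.6 and 69.4 CPM in wild type after KCl, against 39.8 and 43.2 CPM in basal SA libraries and 42.5 and 35.6 CPM in basal wild type. The KCl libraries of each line lay above all basal libraries, and the basal levels of the lines overlapped. The rise was 3.10-fold in the SE line (log2 1.63 ± 0.11 SE of the fit, adjusted p = 3.01e-05) and 1.86-fold in the SA line (log2 0.89 ± 0.10, adjusted p = 0.00103).

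Dnajb4, a J-domain protein related to Dnajb1, had 47.3 and 52.2 CPM in SE libraries and 46.8 CPM in wild type after KCl, against 29.3, 27.8 and 28.5 CPM in the basal SE and wild-type libraries of the line. SA-line cultures had 42.0 and 38.5 CPM in SA libraries and 44.9 and 57.5 CPM in wild type after KCl, against 31.2, 26.0, 32.7 and 32.2 CPM in the basal SA and wild-type libraries. No KCl library overlapped with a basal library of its line. The log2 fold change was 0.77 ± 0.12 in the SE line (adjusted p = 0.00589) and 0.57 ± 0.10 in the SA line (adjusted p = 0.0167). The SA-line call was lost without SA KCl replicate 1 or 2, SA basal replicate 2 or wild-type basal replicate 2, with log2 fold changes of 0.48 to 0.66 over all libraries left out. This call was also lost with libraries of the line only.

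The inducible HSP70 genes did not pass edgeR's test with 8 group means fitted over all 14 libraries. Hspa1a had 17.7 and 10.2 CPM in SE libraries and 11.6 CPM in wild type after KCl, against 7.98, 8.10 and 6.67 CPM in the basal SE and wild-type libraries. Its SA-line levels were 6.62, 6.25, 7.59 and 5.62 CPM in the SA and wild-type libraries after KCl, against 5.74, 5.26, 6.80 and 5.77 CPM at basal. The SE-line groups did not overlap, with the highest value in SE replicate 1, and the SA-line groups overlapped. Its log2 fold change was 0.79 ± 0.21 in the SE line (adjusted p = 0.101) and 0.15 ± 0.18 in the SA line (adjusted p = 1). In the SE line it passed by DESeq2 (adjusted p = 0.0354), with libraries of the line only (adjusted p = 0.00334) and without SE KCl replicate 2, with a log2 fold change of 1.04. Hspa1a passed there under 4 of 20 alternatives, and its log2 fold change ran from 0.50 to 1.04 over all libraries left out.

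Hspa1b had 11.0 and 5.57 CPM in SE libraries and 8.34 CPM in wild type after KCl, against 3.61, 4.14 and 4.38 CPM at basal (log2 1.04 ± 0.33, adjusted p = 0.193, or 0.00211 with libraries of the line only). In the SE line Hspa1b passed under 2 of 20 alternatives, with log2 fold changes of 0.67 to 1.32 over all libraries left out. SA-line levels of Hspa1b were 4.76, 5.48, 6.48 and 4.72 CPM after KCl, against 4.09, 3.21, 7.84 and 3.61 CPM at basal. Again the SE-line groups were apart and the SA-line groups overlapped. Hspa1a and Hspa1b are near-identical neighbours: 63.8% of the 31-base words of the Hspa1a transcript also occur in Hspa1b, and their promoter windows differ at 4 bases, so the division of reads between them is uncertain. Their sum was 28.6, 15.7 and 19.98 CPM in SE-line KCl libraries, against 11.6, 12.3 and 11.1 CPM at basal, and 10.3 to 14.1 CPM in SA-line KCl libraries, against 8.47 to 14.6 CPM at basal.

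The abundant cytosolic chaperones were not called. Hspa8 had 2897, 2886 and 2954 CPM in SE-line KCl libraries, against 2594, 2766 and 2654 CPM at basal (log2 0.12 ± 0.09, adjusted p = 0.764). Hspa8 in the SA line had 2951, 2703, 2313 and 2437 CPM after KCl, against 2564, 2678, 2289 and 2244 CPM at basal (log2 0.09 ± 0.08). The SE-line groups were apart by a small step and the SA-line groups overlapped. Hsp90ab1 had 1974, 1847 and 1965 CPM in SE-line KCl libraries, against 1853, 1865 and 1844 CPM at basal. Hsp90aa1 had 882, 992 and 962 CPM in SE-line KCl libraries, against 975, 1003 and 961 CPM at basal. Both HSP90 genes overlapped between treatments there, with log2 fold changes of 0.06 ± 0.09 and -0.05 ± 0.11, and in the SA line their changes were 0.03 ± 0.08 and -0.05 ± 0.10. SA-line Hsp90ab1 had 1832, 1832, 1727 and 1586 CPM after KCl, against 1801, 1734, 1659 and 1640.0 CPM at basal. SA-line Hsp90aa1 had 975, 876, 1125 and 1078 CPM after KCl, against 1056, 888, 1212 and 1051 CPM at basal, and both overlapped.

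The heat shock transcription factor genes were not called in that fit either. Hsf1 had 25.0, 23.9 and 20.2 CPM in SE-line KCl libraries, against 15.6, 18.8 and 16.6 CPM at basal (log2 0.43 ± 0.14, adjusted p = 0.207, or 0.00948 with libraries of the line only). In the SE line Hsf1 passed under 2 of 20 alternatives, with log2 fold changes of 0.35 to 0.54 over all libraries left out. Hsf1 in the SA line had 16.9, 21.8, 22.1 and 17.2 CPM after KCl, against 17.2, 18.7, 17.9 and 16.6 CPM at basal, and the groups overlapped. Hsf2 had 31.9, 36.7 and 33.3 CPM in SE-line KCl libraries, against 33.6, 32.0 and 30.5 CPM at basal, with overlap. Hsf2 in the SA line had 28.0, 29.4, 35.5 and 34.0 CPM after KCl, against 31.6, 25.7, 34.0 and 31.5 CPM at basal, also with overlap. The remaining 8 cytosolic members are the HSP110 and related exchange factors Hspa4, Hspa4l and Hsph1, the J-domain genes Dnaja1, Dnajb2 and Dnajb5, the HSP70 co-chaperone Bag3 and Hspb1. Their log2 fold changes ran from -0.002 to 0.73 in the SE line and from -0.05 to 0.11 in the SA line, and none passed in that fit.

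In the ER group, 3 of 17 genes rose in the SE line and 2 of 17 in the SA line. Herpud1, which serves the degradation of misfolded ER proteins, had 129 and 132 CPM in SE libraries and 124 CPM in wild type after KCl, against 78.8, 85.1 and 76.9 CPM at basal. SA-line Herpud1 had 37.9 and 43.4 CPM in SA libraries and 48.5 and 37.4 CPM in wild type after KCl, against 28.9, 29.8, 31.7 and 28.4 CPM at basal. Treatments did not overlap within either line, and every SE-line library was above every SA-line library. The log2 fold change was 0.68 ± 0.11 in the SE line (adjusted p = 0.00908) and 0.49 ± 0.10 in the SA line (adjusted p = 0.0309). In the SE line the call was lost without SE basal replicate 1 or SE KCl replicate 2 (log2 0.64 to 0.73 over all libraries left out). The SA-line call was lost without any 1 of 10 libraries, namely all 4 SA and all 4 SE libraries, wild-type KCl replicate 1 and wild-type basal replicate 2 of the SA line (log2 0.39 to 0.58). This call was also lost with libraries of the line only.

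Herpud1 was also carried by several transcripts. Herpud1-205, protein coding, held 69.0% of the gene's TPM, and Herpud1-203, annotated as a retained intron, held 16.49%. Herpud1-203 had 26.8, 27.7 and 28.5 TPM in SE-line KCl libraries, against 6.32, 10.7 and 7.30 TPM at basal. SA-line levels of Herpud1-203 were 8.65, 8.79, 8.44 and 5.83 TPM after KCl, against 3.56, 2.67, 4.21 and 0.479 TPM at basal. The groups did not overlap in either line, and transcript values were not tested.

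Dnajb9, a J-domain partner of BiP that also restrains IRE1, had 41.5 and 47.5 CPM in SE libraries and 48.9 CPM in wild type after KCl, against 33.0, 31.5 and 31.7 CPM at basal. SA-line Dnajb9 had 37.5, 36.4, 34.7 and 38.7 CPM after KCl, against 27.5, 24.8, 26.8 and 24.4 CPM at basal. The groups were apart in both lines, with log2 fold changes of 0.52 ± 0.09 in the SE line (adjusted p = 0.0173) and 0.51 ± 0.08 in the SA line (adjusted p = 0.0108). The SE-line call was lost without SE basal replicate 1 or 2, SE KCl replicate 2 or either wild-type library of the line (log2 0.46 to 0.59). The SA-line call was lost without SA KCl replicate 1 (log2 0.47 to 0.55 over all libraries left out) and with libraries of the line only.

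Hspa5 had 274 and 279.7 CPM in SE libraries and 296 CPM in wild type after KCl, against 213, 205 and 214 CPM at basal. SA-line Hspa5 had 341, 353, 386 and 335 CPM after KCl, against 276, 295, 334 and 294 CPM at basal. KCl libraries lay above basal libraries in both lines. The log2 fold change was 0.43 ± 0.10 in the SE line (adjusted p = 0.0467) and 0.24 ± 0.08 in the SA line (adjusted p = 0.322), and the difference between the lines was 0.19 ± 0.13 (adjusted p = 1). The SE-line call was lost without any 1 of 10 libraries, all 6 of the SE line and the 4 SA libraries (log2 0.42 to 0.45). This call was also lost with no filter on low counts. With a block for replicate number edgeR's test called Hspa5 in the SA line (adjusted p = 0.0233).

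**Figure D3:**
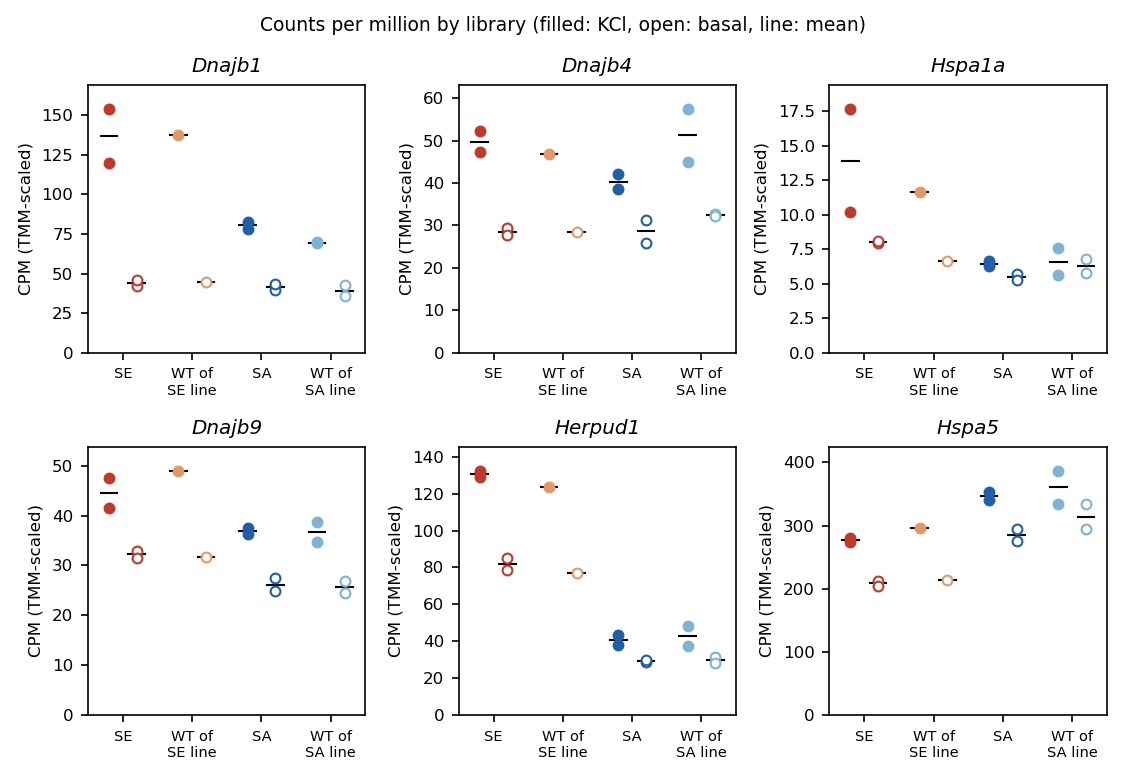
TMM-scaled CPM of 6 members in every library, filled after KCl and open at basal, with the group mean as a line, for SE, the wild type of the SE line, SA and the wild type of the SA line. In Dnajb1 the SE-line KCl libraries sit at 119.5 to 154 CPM and the SA-line KCl libraries at 69.4 to 82.6 CPM, while all basal libraries lie at 35.6 to 46.0 CPM.

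The ER sensors and XBP1 were not called with 8 group means fitted over all 14 libraries. Ern1 had 7.45, 7.52 and 7.01 CPM in SE-line KCl libraries, against 10.8, 9.47 and 11.5 CPM at basal (log2 -0.53 ± 0.14, adjusted p = 0.106, or 0.00664 with libraries of the line only). In the SE line Ern1 passed under 2 of 20 alternatives, with log2 fold changes of -0.58 to -0.43 over all libraries left out. Ern1 in the SA line had 6.80, 7.33, 9.14 and 7.51 CPM after KCl, against 8.09, 9.71, 8.76 and 10 CPM at basal (log2 -0.25 ± 0.12, adjusted p = 0.722). The SE-line groups were apart, with KCl lower, and the SA-line groups overlapped. Xbp1 had 110.0, 103 and 105 CPM in SE-line KCl libraries, against 96.8, 115 and 101 CPM at basal (log2 0.03 ± 0.10). Xbp1 in the SA line had 107 and 94.0 CPM in SA libraries and 72.4 and 82.7 CPM in wild type after KCl, against 85.4 and 82.2 CPM in basal SA and 61.5 and 64.7 CPM in basal wild type (log2 0.28 ± 0.09, adjusted p = 0.224). In the SA line each KCl library of Xbp1 was above the basal library of the same genotype and number. With a block for replicate number edgeR's test called Xbp1 there (adjusted p = 0.0279). Xbp1-201 held 95.4% of the gene's TPM, and splicing of its mRNA by IRE1 was not analysed here. Atf6 had 45.0, 46.1 and 47.9 CPM in SE-line KCl libraries, against 46.8, 38.7 and 49.1 CPM at basal, with overlap. Atf6 in the SA line had 37.9, 38.6, 47.7 and 46.3 CPM after KCl, against 38.6, 39.6, 43.5 and 42.0 CPM at basal, also with overlap.

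Folding enzymes and lectins of the ER were not called in that fit either. Calr had 433, 399 and 434 CPM in SE-line KCl libraries, against 405, 402 and 408 CPM at basal (log2 0.06 ± 0.09). Hsp90b1 had 218, 233 and 234.8 CPM in SE-line KCl libraries, against 233, 232 and 228 CPM at basal (log2 -0.02 ± 0.10). Both overlapped between treatments. SA-line Calr had 652, 616, 529 and 524 CPM after KCl, against 592, 614, 512 and 555 CPM at basal. SA-line Hsp90b1 had 308, 303, 397 and 359 CPM after KCl, against 354, 303, 403 and 372 CPM at basal. These overlapped too. The other 9 ER members were the lectin chaperone Canx, the disulfide isomerases Pdia4 and Pdia6, the BiP cofactors Dnajb11, Dnajc3 and Sdf2l1, the secreted factors Creld2 and Manf and the degradation factor Edem1. Their log2 fold changes ran from -0.13 to 0.14 in the SE line and from -0.15 to 0.09 in the SA line, and none passed in that fit. Of the 3 mitochondrial members none passed in that fit, with log2 fold changes of -0.07 to 0.19 in the SE line and 0.01 to 0.14 in the SA line.

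Counted by groups that did not overlap, the SE line showed 16 members with every KCl library above every basal one, 11 of them cytosolic, 4 ER and 1 mitochondrial, against 14.2% of all genes. It showed 3 members with every KCl library below (Hspd1, Canx and Ern1), against 13% of all genes. In the SA line 5 members were apart upward, namely Dnajb1, Dnajb4, Hspa5, Dnajb9 and Herpud1, and 0 downward, against 2.92% and 2.47% of all genes. The counts of called members depended on single libraries. Without SE basal replicate 1 the SE line had 2 called members, and without SE KCl replicate 2, SE basal replicate 2 or either wild-type library of the line it had 3. Without SA KCl replicate 1 the SA line had 1, and without SA KCl replicate 2, SA basal replicate 2 or wild-type basal replicate 2 it had 2. Without both wild-type libraries numbered 1 of the SA line the counts were 5 in the SE line and 4 in the SA line. Summed over each group, the cytosolic members had 5810 to 5903 TPM in SE-line KCl libraries, against 5281 to 5413 TPM at basal, and the ER members 1414 to 1460 TPM, against 1281 to 1314 TPM. In the SA line both sums overlapped between treatments, with 5523 to 5894 TPM after KCl, against 5560 to 5717 TPM at basal, for the cytosolic members, and 1770 to 2092 TPM, against 1776 to 2013 TPM, for the ER members. Hspa8, which was not called with all 14 libraries fitted, held 2914 to 3050 TPM of the cytosolic sum in SE-line KCl libraries, against 2532 to 2769 TPM at basal. Neuron markers summed to 2717 to 2880 TPM in SE-line KCl libraries, against 2994 to 3207 TPM at basal, and their part in these sums was not tested.

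Other genes of the same pathways were counted next. In a wider cytosolic list of 45 genes, 0 passed in the SA line by edgeR, against 2.02% of all genes. At an unadjusted p under 0.05 there was 1, against 1427 of all 17732 genes, and DESeq2 called 0. In 8 further mitochondrial genes 0 passed in either line by edgeR, against 2.81% of all genes in the SE line and 2.02% in the SA line. With an unadjusted p under 0.05 there were 0, against 2041 and 1427 of 17732 genes, and DESeq2 called 0.

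Of 61 further ER genes tested, 2 rose and 1 fell in the SE line, against 1.82% and 0.998% of all genes, and 4 rose in the SA line, against 1.38% of all genes. Ppp1r15a, which encodes the GADD34 subunit that returns eIF2α to its unphosphorylated state, had 376.9 ± 29.5 CPM after KCl and 47.4 ± 1.83 CPM at basal in the SE line (SD, n = 3 each), a 7.95-fold rise (adjusted p = 5.18e-08). Ppp1r15a in the SA line had 76.2 ± 6.10 CPM after KCl and 21.9 ± 1.502 CPM at basal (SD, n = 4 each), a 3.49-fold rise (adjusted p = 7.45e-07). Ppp1r15b, its constitutive relative, rose by log2 0.78 ± 0.08 in the SE line and 0.62 ± 0.07 in the SA line (adjusted p = 0.000451 and 0.00105). Atf4, the transcription factor translated when eIF2α is phosphorylated, had 518.9 ± 22.2 CPM after KCl and 327.2 ± 5.80 CPM at basal in the SE line (SD, n = 3 each), where it was called by DESeq2 but not by edgeR. Atf4 in the SA line had 210.9 ± 38.2 CPM after KCl and 98.5 ± 15.0 CPM at basal (SD, n = 4 each) and was called by both, with a log2 fold change of 1.096 ± 0.15 (adjusted p = 0.00336 by edgeR). Selenok, an ER selenoprotein gene, rose in the SA line by log2 0.33 ± 0.07 (adjusted p = 0.0441), and its call was lost without any 1 of the 12 libraries other than the SE-line wild type. The Selenok call was also lost with no filter on low counts and with libraries of the line only. Crebrf, a regulator of CREB3, fell in the SE line by log2 -0.70 ± 0.14 (adjusted p = 0.0302), and its call was lost without any 1 of the 6 SE-line or 4 SA libraries. With no filter on low counts the Crebrf call was lost too.

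The size of the KCl response was compared between the lines next. No member passed this test by edgeR, against 0.152% of all genes, and 2 members, Dnajb1 and Hspa1a, had an unadjusted p under 0.05, against 3.08% of all genes. DESeq2 called 1 member, Dnajb1. Dnajb1 rose more in the SE line by log2 0.74 ± 0.15 (unadjusted p = 0.000642, adjusted p = 0.223), with adjusted p from 0.00836 to 0.930 over the alternatives. Hspa1a differed by 0.64 ± 0.28 (adjusted p = 1), Dnajb4 by 0.20 ± 0.15, Herpud1 by 0.18 ± 0.14, Hspa5 by 0.19 ± 0.13 and Dnajb9 by 0.01 ± 0.12 (adjusted p = 1 each). The members' median difference was 0.04, with 0.11 in the cytosolic and -0.005 in the ER group, against 0.01 over all genes. In the wider ER list Ppp1r15a passed, with a response larger by log2 1.19 ± 0.11 in the SE line (adjusted p = 0.00302).

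Without KCl the lines themselves differed widely, and the ER members were mostly lower in the SE line. Of the 37 members, 5 were higher and 12 lower in the SE line than in the SA line by edgeR's quasi-likelihood test, 17 in all, against 47.8% of all genes called (21.8% higher and 26% lower). In the ER group 3 were higher and 10 lower of 17, in the cytosolic group 1 higher and 2 lower of 17, and in the mitochondrial group 1 higher of 3. The members' median log2 difference was -0.09, and -0.34 in the ER group, against 0.003 over all genes tested. The 61 further ER genes did not share this shift, with 14 higher, 16 lower and a median of 0.006. Each mutant was in 1 line only, while both lines had wild-type libraries, so BRG1 genotype did not fully separate with the line. Littermates and the summed markers of cell types other than neurons did separate with it, and the labels do not state handling. Neuron markers overlapped, with 2994 to 3207 TPM in SE-line basal libraries, against 2202 to 3347 TPM in SA-line basal libraries. Line, batch and composition therefore cannot be told apart.

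Herpud1 ran against the ER group. At basal it had 78.8, 85.1 and 76.9 CPM in SE-line libraries, against 28.9, 29.8, 31.7 and 28.4 CPM in SA-line libraries (2.70-fold, adjusted p = 8.71e-06). Xbp1 had 96.8, 115 and 101 CPM in SE-line libraries, against 85.4, 82.2, 61.5 and 64.7 CPM in SA-line libraries (log2 0.52 ± 0.09, adjusted p = 0.00139). Dnajb9 had 33.0, 31.5 and 31.7 CPM in SE-line libraries, against 27.5, 24.8, 26.8 and 24.4 CPM in SA-line libraries (log2 0.31 ± 0.09, adjusted p = 0.0163). None of the 3 genes overlapped between lines. The share of all genes apart between lines is not given here. Since 47.8% of all genes were called, being apart does not set a member off from other genes.

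The ER chaperones that were lower include the main folding machinery. Pdia4, a disulfide isomerase, had 54.0, 50.8 and 52.8 CPM in SE-line libraries, against 89.4, 119, 132 and 110.0 CPM in SA-line libraries (log2 -1.09 ± 0.14, adjusted p = 0.000231). Dnajc3, a BiP co-chaperone that also inhibits PERK, had 33.4, 30.8 and 30.6 CPM in SE-line libraries, against 52.7, 60.3, 84.9 and 67.9 CPM in SA-line libraries (log2 -1.06 ± 0.14, adjusted p = 0.000218). Both were apart between lines. Pdia6 had 92.0, 87.0 and 89.3 CPM in SE-line libraries, against 143, 160.2, 169 and 136 CPM in SA-line libraries (log2 -0.77 ± 0.11). Edem1, which directs misfolded glycoproteins to degradation, had 16.46, 15.6 and 16.4 CPM in SE-line libraries, against 31.2, 28.0, 21.7 and 29.7 CPM in SA-line libraries (log2 -0.77 ± 0.14). The lowest SA-line library was above the highest SE-line library in both.

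Hsp90b1 had 233, 232 and 228 CPM in SE-line libraries, against 354, 303, 403 and 372 CPM in SA-line libraries (log2 -0.63 ± 0.09). Hspa5 had 213, 205 and 214 CPM in SE-line libraries, against 276, 295, 334 and 294 CPM in SA-line libraries (log2 -0.51 ± 0.09). Calr had 405, 402 and 408 CPM in SE-line libraries, against 592, 614, 512 and 555 CPM in SA-line libraries (log2 -0.49 ± 0.08). These 3 abundant chaperones did not overlap between lines. Canx had 356, 334 and 346 CPM in SE-line libraries, against 444, 363, 430.1 and 475 CPM in SA-line libraries (log2 -0.31 ± 0.10, adjusted p = 0.0267). Sdf2l1, a partner of BiP, had 4.33, 4.83 and 4.84 CPM in SE-line libraries, against 6.26, 6.42, 7.72 and 5.69 CPM in SA-line libraries (log2 -0.48 ± 0.18, adjusted p = 0.0452). Creld2, a disulfide isomerase-like protein, had 14.6, 16.9 and 15.8 CPM in SE-line libraries, against 20, 19.2, 22.8 and 17.7 CPM in SA-line libraries (log2 -0.34 ± 0.12, adjusted p = 0.0472). Creld2 lost its call under 15 of 18 alternatives, Sdf2l1 under 13, Hspa9 under 7, Canx under 5 and Dnajb9 under 3.

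**Figure D4:**
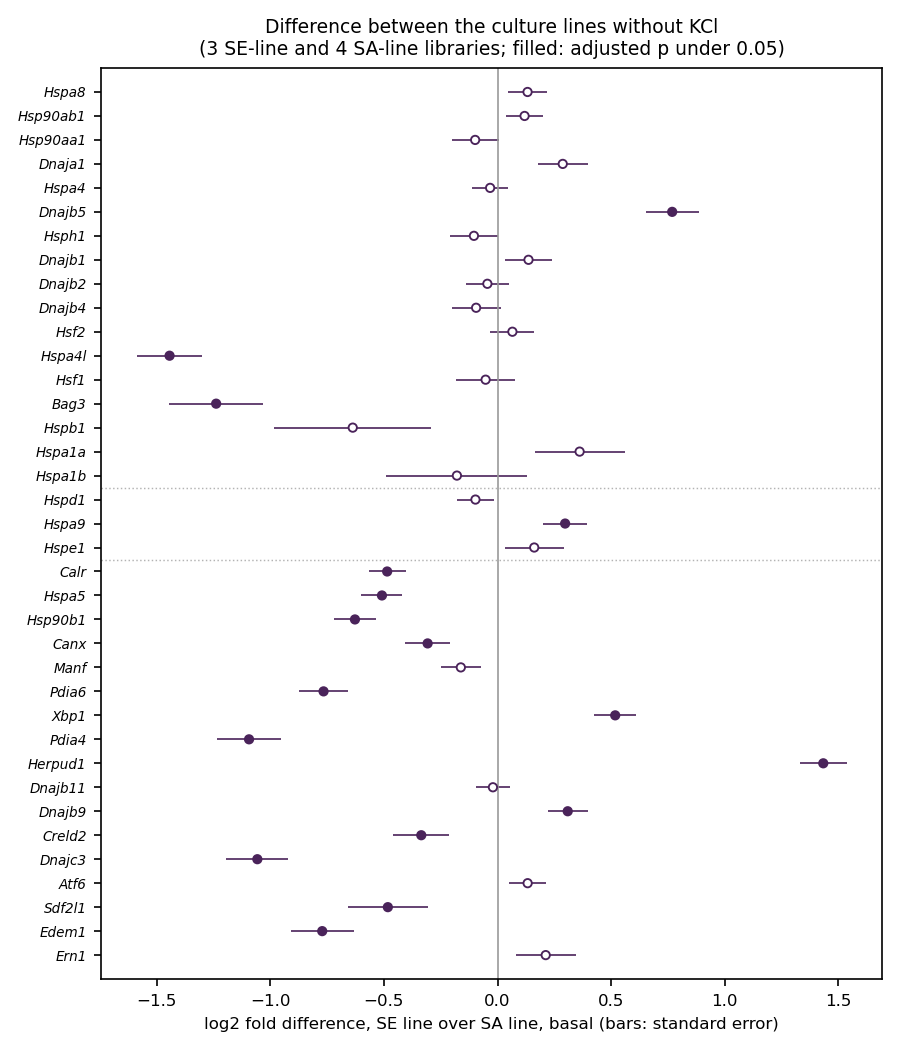
Log2 difference of each member at basal between 3 SE-line and 4 SA-line libraries, with standard errors and filled points for adjusted p under 0.05. ER genes sit mostly left of 0, Herpud1 stands at 1.43 on the right, and Hspa4l and Bag3 are the cytosolic genes farthest left, at -1.44 and -1.24.

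In the cytosolic and mitochondrial groups fewer members differed. Hspa4l, an HSP110 relative, had 33.3, 31.8 and 33.0 CPM in SE-line libraries, against 69.8, 80.9, 119.6 and 90.5 CPM in SA-line libraries (log2 -1.44 ± 0.14, adjusted p = 5.30e-05). Bag3, which links HSP70 to autophagy, had 9.88, 8.70 and 9.18 CPM in SE-line libraries, against 16.4, 27.2, 20.3 and 23.6 CPM in SA-line libraries (log2 -1.24 ± 0.21, adjusted p = 0.00102). Dnajb5 had 183, 191 and 188 CPM in SE-line libraries, against 130.1, 121, 84.6 and 108 CPM in SA-line libraries (log2 0.77 ± 0.12). Hspa9 had 256, 266 and 278 CPM in SE-line libraries, against 205, 201, 249 and 215 CPM in SA-line libraries (log2 0.30 ± 0.10, adjusted p = 0.0288). All 4 were apart between lines. Other cell markers moved with the line too: summed astrocyte markers (6 genes) were 194 to 213 TPM in SE-line basal libraries, against 961 to 1430 TPM in SA-line basal libraries, progenitor markers (6 genes) 35.9 to 37.5 TPM, against 216 to 457 TPM, and meningeal fibroblast markers (6 genes) 8.09 to 11.2 TPM, against 37.3 to 89.9 TPM. All markers of these lists were detected, and their part in the differences of the chaperones was not tested.

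After KCl most of these members had the same order of the lines, a comparison that was not tested. The share of all genes apart between lines after KCl is not given here either. Pdia4 had 46.7, 47.7 and 52.5 CPM in SE-line KCl libraries, against 98.5, 121, 131 and 99.1 CPM in SA-line KCl libraries. Dnajc3 had 29.5, 34.7 and 33.3 CPM in SE-line KCl libraries, against 45.8, 61.7, 84.2 and 72.5 CPM in SA-line KCl libraries. Pdia6 had 89.7, 89.7 and 89.0 CPM in SE-line KCl libraries, against 151, 164, 172 and 139 CPM in SA-line KCl libraries. These ER genes were apart. Edem1 had 13.7, 15.6 and 15.1 CPM in SE-line KCl libraries, against 26.3, 28.5, 23.3 and 30.4 CPM in SA-line KCl libraries. Canx had 299, 330.3 and 319.6 CPM in SE-line KCl libraries, against 352, 358, 408 and 429.6 CPM in SA-line KCl libraries. Sdf2l1 had 4.32, 4.27 and 4.77 CPM in SE-line KCl libraries, against 5.42, 7.20, 7.67 and 5.79 CPM in SA-line KCl libraries. These were apart as well, while Creld2 and Xbp1 overlapped. Xbp1 had 110.0, 103 and 105 CPM in SE-line KCl libraries, against 107, 94.0, 72.4 and 82.7 CPM in SA-line KCl libraries. Creld2 had 17.0, 17.9 and 17.1 CPM in SE-line KCl libraries, against 18.01, 20.8, 20.7 and 17.6 CPM in SA-line KCl libraries. Bag3 had 13.7, 11.2 and 12.8 CPM in SE-line KCl libraries, against 17.5, 27.0, 24.6 and 23.9 CPM in SA-line KCl libraries. Dnajb5 had 229.7, 211 and 213 CPM in SE-line KCl libraries, against 132, 129, 93.2 and 122 CPM in SA-line KCl libraries. Bag3 was lower and Dnajb5 higher in every SE-line library. Hspa9 had 296, 307 and 306 CPM in SE-line KCl libraries, against 216, 239, 271 and 226 CPM in SA-line KCl libraries, again apart.

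Mutants were then compared with the wild type of their line, and no member passed. edgeR called 0 genes in SE against wild type at basal and after KCl, in SA against wild type at basal and after KCl, and in both differences of KCl response, 0% of all genes each. At an unadjusted p under 0.05 there were 0 members of 37 in SE against wild type in either treatment, against 1.05% of all genes at basal and 1.35% after KCl. In SA against wild type there were 4 of 37 members at basal, against 7.21% of all genes, and 8 of 37 after KCl, against 11.5%. In the difference of KCl response there were 0 members in either line, against 0.897% of all genes in the SE line and 0.688% in the SA line. DESeq2 called 0 members in these comparisons except 1, Hspa4l, in SA against wild type after KCl.

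Hspa4l had 57.8 and 75.1 CPM in SA libraries after KCl, against 124 and 99.9 CPM in wild type, and 69.8 and 80.9 CPM in SA libraries at basal, against 119.6 and 90.5 CPM in wild type. Its log2 difference was -0.75 ± 0.18 after KCl (adjusted p = 0.299) and -0.48 ± 0.18 at basal (adjusted p = 0.621). Without both wild-type libraries numbered 1 these values were -0.59 and -0.26, with 1 wild-type library per treatment left. Groups did not overlap in either treatment, and the SE line had 32.4 and 37.9 CPM in SE libraries after KCl, against 30.9 CPM in wild type.

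Xbp1 ran the other way, with 107 and 94.0 CPM in SA libraries after KCl, against 72.4 and 82.7 CPM in wild type (log2 0.37 ± 0.12, adjusted p = 0.370). At basal it had 85.4 and 82.2 CPM in SA libraries, against 61.5 and 64.7 CPM in wild type (log2 0.41 ± 0.12, adjusted p = 0.621). Dnajc3 had 45.8 and 61.7 CPM in SA libraries after KCl, against 84.2 and 72.5 CPM in wild type (log2 -0.55 ± 0.17, adjusted p = 0.349). The groups of both genes did not overlap. Here too the share of all genes apart is not given, so this does not set them off from other genes. Progenitor markers also separated the genotypes, with 189.5 to 264 TPM in SA libraries after KCl, against 282 to 459 TPM in wild type, and meningeal fibroblast markers had 42.4 to 53.0 TPM, against 79.9 to 98.5 TPM. Their part in these values was not tested.

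The KCl responses of the genes that rose were also set against each other in mutant and wild type, and none of the differences passed. In Dnajb1 the response differed by log2 -0.003 ± 0.24 between SE and wild type and by 0.13 ± 0.19 between SA and wild type (adjusted p = 1 each). In Herpud1 the differences were -0.01 ± 0.23 for SE and -0.04 ± 0.19 for SA. Dnajb9 had -0.16 ± 0.20 for SE and -0.02 ± 0.16 for SA. Each error is given as SE of the fit, and the SE line has 1 wild-type library per treatment, so equal responses are not shown.

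**Figure D5:**
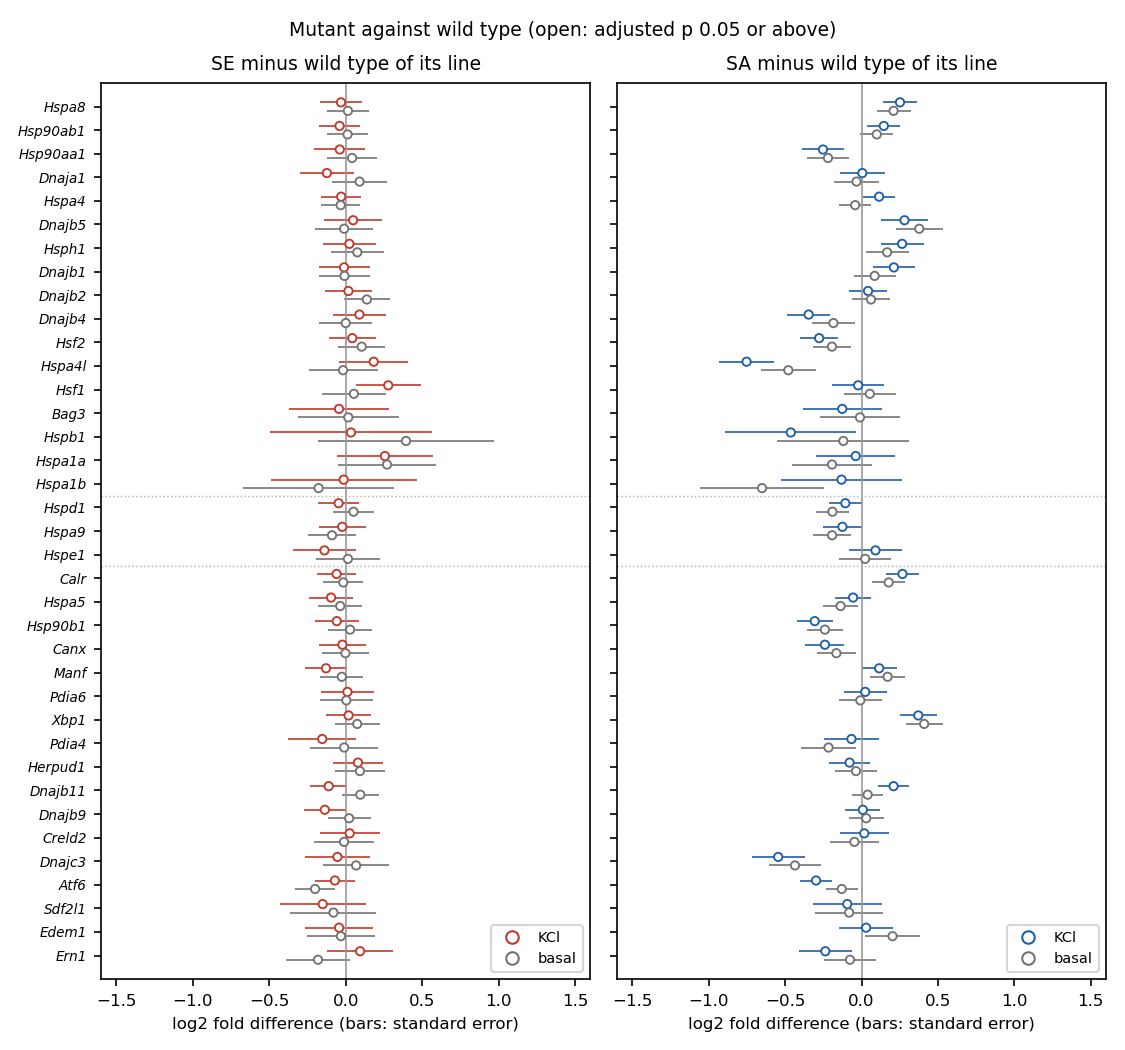
Log2 difference between mutant and wild type for each member, SE on the left and SA on the right, after KCl (coloured) and at basal (grey), with standard errors. All points are open because none passed, and the members farthest from 0 in the SA panel include Hspa4l at -0.75 and Xbp1 at 0.41.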

How the data were processed

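RNA sequencing libraries of 14 primary cortical neuron cultures were used. The authors deposited estimated counts and TPM per gene and per transcript, and the submitters' processing notes name kallisto 0.43.1 with the builds GRCm38 and mm10. This tool divides reads shared by several transcripts among them by estimation, so 65.6% of nonzero gene values were not whole, and reads of near-identical genes can be moved between them. The use of strand in counting is not given in these sources, so reads of overlapping genes cannot be told apart by strand.

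The estimated counts were rounded, genes were kept by filterByExpr over genotype and treatment, and libraries were scaled by TMM. A model of 8 group means over all 14 libraries (6 residual degrees of freedom) was tested with edgeR 4.0.16 (quasi-likelihood) in R 4.3.3, with Benjamini-Hochberg adjustment over 17732 genes and a threshold of 0.05. Line responses weight libraries equally. The log2 fold changes are edgeR's, and their standard errors were derived from its F statistic. The steps were tested on simulated data. CPM values are computed from the rounded counts and the TMM factors, and TPM was used only for levels between genes, transcripts, marker sums and sums over members.

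Values in every library are given for members called in any comparison, the 3 cytosolic and the 3 ER members of the highest mean TPM, the sensors and transcription factors, and Hspa1a and Hspa1b. From the wider lists up to 6 called genes are named per list and KCl comparison. The SE-line result of the wider cytosolic list is not reported here. The members and lists were chosen with earlier results of these data known. Promoters came from RefSeq (GRCm38.p6), and the second ER stress element and the printing of Hspa5 were added after the sequences were read. Point mutations cannot be checked from gene counts. Alternatives were another scaling, no filter, a replicate block, the libraries of 1 line only, DESeq2 1.42.0, each library left out in turn and, chosen after seeing the data, both wild-type libraries numbered 1 of the SA line left out together.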

Additional observations from a re-analysis of the deposited data

Results flagged for a closer look

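The response of Ppp1r15a to KCl differed between the lines by a test of the difference itself, the interaction contrast in edgeR. It was larger in the SE line than in the SA line by log2 1.19 ± 0.11 (adjusted p = 0.00302), with 376.9 ± 29.5 CPM after KCl and 47.4 ± 1.83 CPM at basal in the SE line, and 76.2 ± 6.10 CPM after KCl and 21.9 ± 1.502 CPM at basal in the SA line (SD, n = 3 and 4 libraries per treatment). It passed under all 19 alternatives run, with differences of 1.15 to 1.25. Line, batch and cell makeup cannot be told apart.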

How the results depend on the processing

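Over 65 results of single genes, 1131 of 1261 recomputed values kept their direction and side of the threshold, 109 lost and 18 gained the call, and 3 turned round. These 3 were uncalled and turned with 1 library left out: Hsf2 in the SA line (-0.0245 to 0.124 over the libraries left out), and Atf6 (-0.0218 to 0.149) and Xbp1 (-0.0484 to 0.131) in the SE line. Deviations of KCl and basal libraries of the same number correlated at 0.422 in SA and 0.67 in SA-line wild type, but at -0.0512 in SE. Those of SA with wild type correlated at -0.282 after KCl and -0.306 at basal. The numbers thus went with shared deviations between treatments in the SA line and not in SE. The main fit did not use the numbers, so its SA-line KCl tests ignore these shared deviations. With the replicate block, the SE line had 1771 genes and 11 members called after KCl, the SA line 1040 genes, the difference between lines 146 genes and 1 member, and the SE against wild-type response 2 genes. The block gained the calls of Hspa1a, Hspa1b, Hsf1 and Ern1 in the SE line (adjusted p = 0.00197, 0.00433, 0.00947 and 0.00995), Hspa5 and Xbp1 in the SA line (0.0233 and 0.0279) and Dnajb1 between lines (0.00836). Members were recomputed singly only if their unadjusted p was under 0.05, or if they were sensors, transcription factors, Hspa1a or Hspa1b. Other SE-line members gained with the block or with libraries of the line only are not named, and the tally above leaves them out. With libraries of the line only, the KCl calls were 1638 genes and 10 members in the SE line and 166 genes and 1 member in the SA line, SE against wild type had 10 genes at basal and 31 after KCl, and their response difference 4. With no filter the line difference had 56 genes and SE against wild type after KCl 3. With DESeq2 the line difference had 66 genes and 1 member (Dnajb1), SA against wild type after KCl 119 genes and 1 member (Hspa4l, adjusted p = 0.043), SE against wild type after KCl 1 gene and its response difference 1, and the wider ER list 5 genes in the SE line, against 3 by edgeR. The cause of these shifts was not tested.

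With 1 library left out, KCl calls ran from 226 to 517 genes and 2 to 5 members in the SE line, and from 210 to 365 genes and 1 to 4 members in the SA line. The line difference ran from 12 to 42 genes and 0 to 0 members, the basal lines from 6261 to 8761 genes and 12 to 17 members, and SE against wild type after KCl, SA against wild type at basal and after KCl, and the SE against wild-type response from 0 to 1 gene each. The line difference had 12 genes without SE basal replicate 1, 13 without SE basal replicate 2, 17 without SE KCl replicate 1 and 42 without wild-type basal replicate 2 of the SA line. Where an SE-line wild-type library is left out, the response of that line rests on SE libraries alone. Without both SA-line wild-type libraries numbered 1, KCl calls were 686 genes in the SE line and 341 in the SA line. Few counts limit the precision of low genes such as Hspa1b, at 3.21 CPM in 1 basal SA library.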

Other observations

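Atf4 and 2 genes known as ATF4 targets, Ddit3 and Chac1, were higher in the SE line without KCl. They were picked from the wider ER list after their values were seen. Ddit3, which encodes the transcription factor CHOP, had 32.6 ± 1.29 CPM in SE-line and 8.01 ± 1.41 CPM in SA-line basal libraries (SD, n = 3 and 4; 4.10-fold, adjusted p = 2.78e-05 by edgeR's quasi-likelihood test). Chac1, a glutathione-degrading enzyme, had 50.5 ± 6.13 CPM in SE-line and 6.09 ± 3.05 CPM in SA-line basal libraries (8.38-fold, adjusted p = 0.000577). Atf4 itself had 327 ± 5.80 CPM in SE-line and 98.5 ± 14.9 CPM in SA-line basal libraries (3.32-fold, adjusted p = 2.99e-05). In the whole list 14 genes were higher and 16 lower of 61 in the SE line, against 21.8% and 26% of all genes, and line, batch and cell makeup cannot be told apart.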
